A study of Mus musculus with 4 samples.

Results

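Imprinted genes are transcribed mainly from one parental copy, and a list of 38 such mouse genes was followed here in the embryonic cortex by matching each gene symbol to the deposited count table. Of these 38 genes, 35 had a row among the 26433 genes of the table. Phlda2, Snurf and Nesp had no row and were not analysed here. The study crossed mice carrying human SERPINA3 with Nestin-Cre mice and asked how this protein acts on cortical neurogenesis. Bulk RNA sequencing compared 2 libraries of cKI f/+ cortex, named KI2 and KI3 in the table, with 2 libraries of WT littermates, named WT1 and WT3. For all 4 the labels name the cerebral cortex at embryonic day 15 (E15), where the methods of the study name telencephalic tissue, and they give C57BL/6 as the strain of both groups. The cKI f/+ mice carry a Flag-tagged human SERPINA3 behind a CAG promoter and a floxed stop cassette at Rosa26, so that the transgene is switched on only in Nestin-positive cells and the cells they give rise to. The founders were mated with B6D2F2 mice before the cross to the Cre line. The libraries held 17736663 reads in KI2 and 18119444 in KI3, against 17615212 in WT1 and 17423512 in WT3. A count of 3 reads, taken as the detection floor, equals 0.166 to 0.172 reads per 1000000 counted reads (RPM), and this covers counting error only.

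Imprinting is set in the germ line, where a control region of a locus is methylated in the egg or in the sperm, and the mark is then kept on that copy in the embryo. Many paternally expressed genes promote fetal growth and many maternally expressed genes restrain it, and several of these genes are strongly expressed in the developing brain. The counts do not separate the parental copies, so the class of each gene, maternal, paternal or mixed between tissues or transcripts, is background knowledge and was not measured. In bulk tissue, fewer cells of a type and less RNA per cell cannot be told apart.

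The tissue label was checked on marker genes. All 10 dorsal telencephalon markers were tested, and their summed level was 4325 RPM in KI2 and 4142 in KI3, against 4582 in WT1 and 4385 in WT3, with Neurod6, a neuronal transcription factor, as the most abundant per length. Of these 10 markers 0 were called, and 1, Emx2, was higher at an unadjusted p under 0.05. Sex-linked genes separated the groups exactly as genotype did, with all 5 listed genes called. Xist, the RNA of the inactive X chromosome, had 13223 reads in KI2, 11882 in KI3 and 5 in each WT library, while Kdm5d of chromosome Y had 0 reads in both cKI f/+ libraries, 951 in WT1 and 918 in WT3. Embryo sex and genotype therefore cannot be told apart in any comparison given here.

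No imprinted gene passed the test between cKI f/+ and WT cortices. Of the 35 members, all passed the expression filter and 0 were called at an adjusted p under 0.05 with edgeR's quasi-likelihood test, where 0.120% of the 15786 genes tested were called. DESeq2 also called 0 of 35 members, against 0.107% of its 22349 genes, and edgeR's likelihood ratio test called 0 of 35, against 0.342% of all genes. At an unadjusted p under 0.05 there were 3 members, or 8.57%, where 4.60% of all genes passed. These were Igf2, higher in cKI f/+ mice, and Plagl1 and Sgce, lower in cKI f/+ mice. That count was 1 with DESeq2, which retained Plagl1, and it was 5 without WT1 and 6 without WT3. Which genes passed also depended on the library left out, and without KI3 they were H19, Sgce and Peg10. Without KI2, 1 member was called, Dio3, whose reads are given below. The libraries of both groups did not overlap for 14 members, or 40% of them, against 34.1% of all genes. Of these members 4 were higher and 10 lower in cKI f/+ mice, where 2730 of all genes were higher and 2660 lower. With 2 libraries in each group, an exact permutation test of 1 gene can reach no p below 0.333, and the tests used here borrow the spread from all genes.

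**Figure D1:**
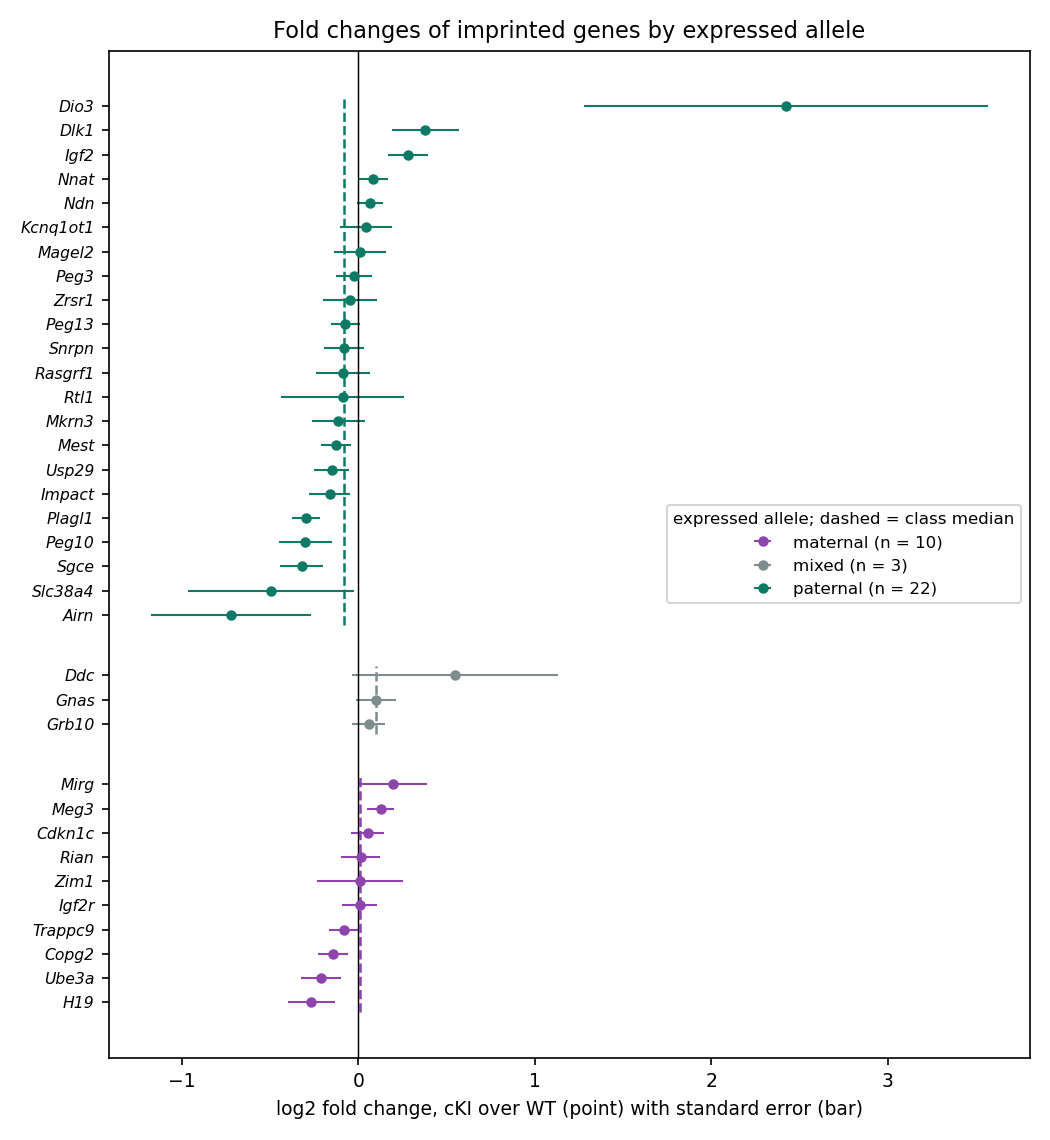
Log2 fold change of each imprinted gene, cKI f/+ over WT (horizontal axis, points), with its standard error (bars), grouped by the expressed parental copy, and the median of each class (dashed lines). The medians are 0.01 for 10 maternally expressed genes and -0.08 for 22 paternally expressed genes, and Dio3 lies apart at 2.42 with the widest error.

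The parental classes lay close to each other and to the other genes. Among the 10 maternally expressed genes with a row, 6 had a higher value in cKI f/+ mice and 4 a lower value, and the median log2 fold change was 0.01. Among the 22 paternally expressed genes, 7 were higher and 15 lower, with a median of -0.08. Of all genes tested, 8082 were higher and 7704 lower, with a median of 0.0043. Each gene was then set against its own mean over the 4 libraries on the log2 scale, and the median of the paternally expressed genes was -0.05 in KI2 and -0.03 in KI3, against 0.06 in WT1 and 0.07 in WT3. Both cKI f/+ libraries thus lay below both WT libraries for this class, and the median per library was not computed over all genes tested. The same median for maternally expressed genes was 0.0003 in KI2 and 0.02 in KI3, against 0.02 in WT1 and 0.02 in WT3, without a gap between the groups. One library moved these small medians. The median fold change of the paternal class was -0.0024 without WT1, and that of the maternal class was -0.06 without KI2, -0.0013 without KI3, -0.03 without WT1 and -0.05 without WT3. The 3 members of mixed class, Grb10, Ddc and Gnas, had a median of 0.10. The size of the differences was close to that of other genes, since the median absolute log2 fold change was 0.11 over the 35 members and 0.10 over all genes tested, and 1 member, Dio3, was beyond 1.

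Levels between genes were compared as RPM per kilobase of merged exons, called the level per length below. Nnat, on chromosome 2, codes for neuronatin, a small membrane protein of developing neurons, and was the most abundant member. Its level per length was 1153 in KI2 and 1309 in KI3, against 1108 in WT1 and 1221 in WT3, and it ranked 13th among all 26362 genes with a row and a length. Nnat alone held 49.1% of all reads on imprinted genes in KI2 and 52.0% in KI3, against 47.6% in WT1 and 50.1% in WT3. Its log2 fold change was 0.09 with a standard error of 0.08 (adjusted p = 0.982, edgeR), the groups overlapped, and the value was -0.0079 without KI3.

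After Nnat the levels dropped steeply. Ndn, which codes for the MAGE family protein necdin of postmitotic neurons, had a level per length of 72.4 in KI2 and 71.2 in KI3, against 69.0 in WT1 and 68.9 in WT3. Both cKI f/+ values lay above both WT values by a small margin, at a log2 fold change of 0.06 with a standard error of 0.07, or 0.04 without KI2. Peg13, a noncoding RNA within an intron of Trappc9, followed at 45.5 in KI2 and 45.3 in KI3, against 50.7 in WT1 and 45.2 in WT3, so that WT1 alone stood higher. Grb10, an adaptor that dampens insulin and IGF receptor signaling, was at 28.1, 31.1, 30.5 and 26.6 in the same order of libraries, with overlapping groups. The next 4 in the order, Cdkn1c, Mest, Meg3 and Snrpn, had levels per length between 16.4 and 22.0 in every library. Cdkn1c and Mest were each above Snrpn in all 4 libraries, and Cdkn1c was also above Meg3 in all 4. Merged exons join those of all annotated transcripts of a gene, 18089 bases for Meg3 and 2039 for Cdkn1c, so this order depends on the annotation. In RPM, Meg3 was the higher, at 304 to 346 against 41.1 to 44.9 for Cdkn1c. At the lower end of the level per length were Kcnq1ot1 with a mean of 0.182, Slc38a4 with 0.143 and Ddc with 0.111, and the mean of Nnat was 10841-fold that of Ddc. The place of Kcnq1ot1 there depends on its merged exons of 93092 bases. It had 275 to 337 reads in a library, against 9 to 13 for Slc38a4 and 4 to 11 for Ddc. The median member lay at 5.19 and the median tested gene at 5.05, so that 18 of the 35 members were above the median of tested genes, and 3, Nnat, Ndn and Peg13, were above the 90th percentile of 34.8. For 8 members more than 10% of the exon bases are shared with other annotated genes, with Igf2 at 64.5%, Snrpn at 34.1%, Cdkn1c at 30.7% and Ube3a at 27.3%, and reads there could be given to either gene or to none.

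**Figure D2:**
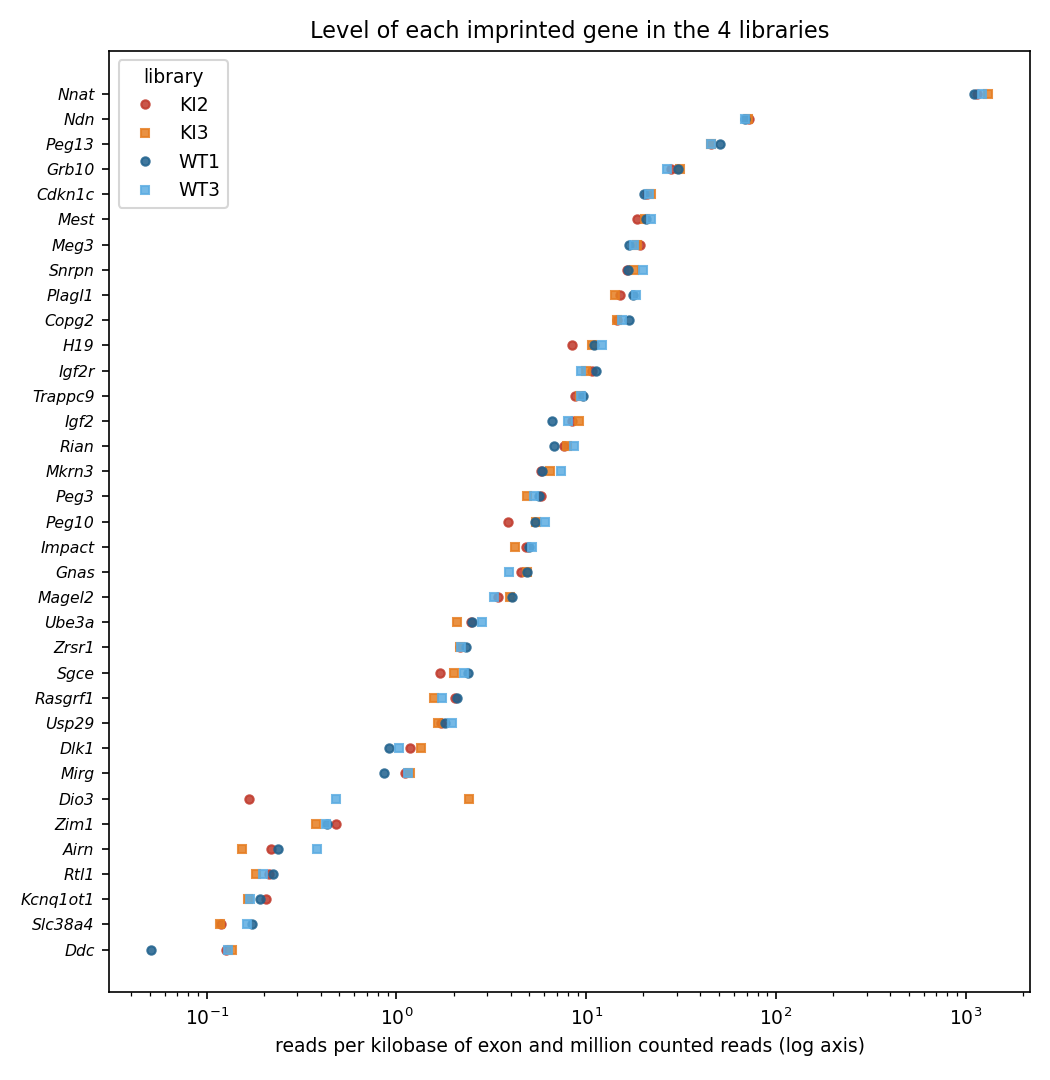
Level per length (RPM per kilobase of exon, logarithmic axis) of the 35 imprinted genes in libraries KI2, KI3, WT1 and WT3, in order of the mean. The 4 libraries lie close together for most genes, while Dio3 ranges from 0.167 in KI2 to 2.42 in KI3, with its 0 in WT1 not drawn.

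At the H19-Igf2 locus on chromosome 7 the growth factor and its noncoding neighbor lay on opposite sides. Igf2, a fetal growth factor classed here as paternally expressed, had 851 reads in KI2 and 955 in KI3, against 663 in WT1 and 795 in WT3. Both cKI f/+ libraries were above both WT libraries, with 50.3 RPM on average against 41.6. The log2 fold change was 0.28 with a standard error of 0.11 (unadjusted p = 0.0349, adjusted p = 0.969, edgeR), so Igf2 was not called. It was 0.15 without WT1 and 0.43 without WT3. H19, the maternally expressed noncoding RNA that shares a control region and enhancers with Igf2, had 366 reads in KI2 and 478 in KI3, against 476 in WT1 and 518 in WT3. KI2 was the low library for H19, and KI3 lay just below WT1 after scaling, at 26.4 against 27.0 RPM. Its log2 fold change was -0.27 with a standard error of 0.13 (adjusted p = 0.969, edgeR), and it was -0.11 without KI2 and -0.45 without KI3.

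The ratio of both genes needs no library size. H19 reads per Igf2 read were 0.430 in KI2 and 0.501 in KI3, against 0.718 in WT1 and 0.652 in WT3, which gave 0.465 ± 0.0498 for cKI f/+ mice and 0.685 ± 0.0469 for WT mice (mean ± SD, n = 2 each). The groups did not overlap, and the gap between the means was larger than the spread within each group. Of 10 ratios between partner genes of a locus, 3 had groups that did not overlap, a share no larger than the 34.1% of all genes given above. The direction of a ratio depends on which gene is divided by which. Besides H19 per Igf2 read, these 3 were Meg3 per Dlk1 read and Airn per Igf2r read, the latter on few Airn reads.

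Igf2 is also made outside the neural lineage, in meninges, vessels and choroid plexus, and markers of these tissues were examined beside it. For the meninges 10 of 10 markers had a row and 6 were tested, and their summed level was 23.3 RPM in KI2 and 22.0 in KI3, against 10.6 in WT1 and 12.9 in WT3. The most abundant per length was Col3a1, a fibrillar collagen, with 117 reads in KI2 and 121 in KI3, against 72 in WT1 and 64 in WT3, while Lum and Aldh1a2 were at 0 in WT1 and Slc6a13 was at 0 in WT3. The marker sum was thus higher in KI2 and KI3, as was Igf2. Of the 6 tested markers, 5 were higher in cKI f/+ mice and 1, Foxc1, was lower, with 0 called and 4 at an unadjusted p under 0.05, all of them higher (Col1a1, Col1a2, Col3a1 and Dcn). For the endothelium 8 of 8 markers had a row, 7 were tested and 0 were called or had an unadjusted p under 0.05, with a sum of 90.9 RPM in KI2 and 101 in KI3, against 103 in WT1 and 99.8 in WT3. Cldn5, a tight junction protein, was the most abundant there, and Slco1a4 was at 0 in WT1. Choroid plexus markers, described with Dio3 below, summed to 10.8 RPM in KI2 and 70.8 in KI3, against 2.44 in WT1 and 5.11 in WT3. Their sum and the RPM of Igf2 followed the same order of libraries, from KI3 through KI2 and WT3 to WT1. The part of these tissues in the values of Igf2, H19 and Dlk1 was not tested.

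**Figure D3:**
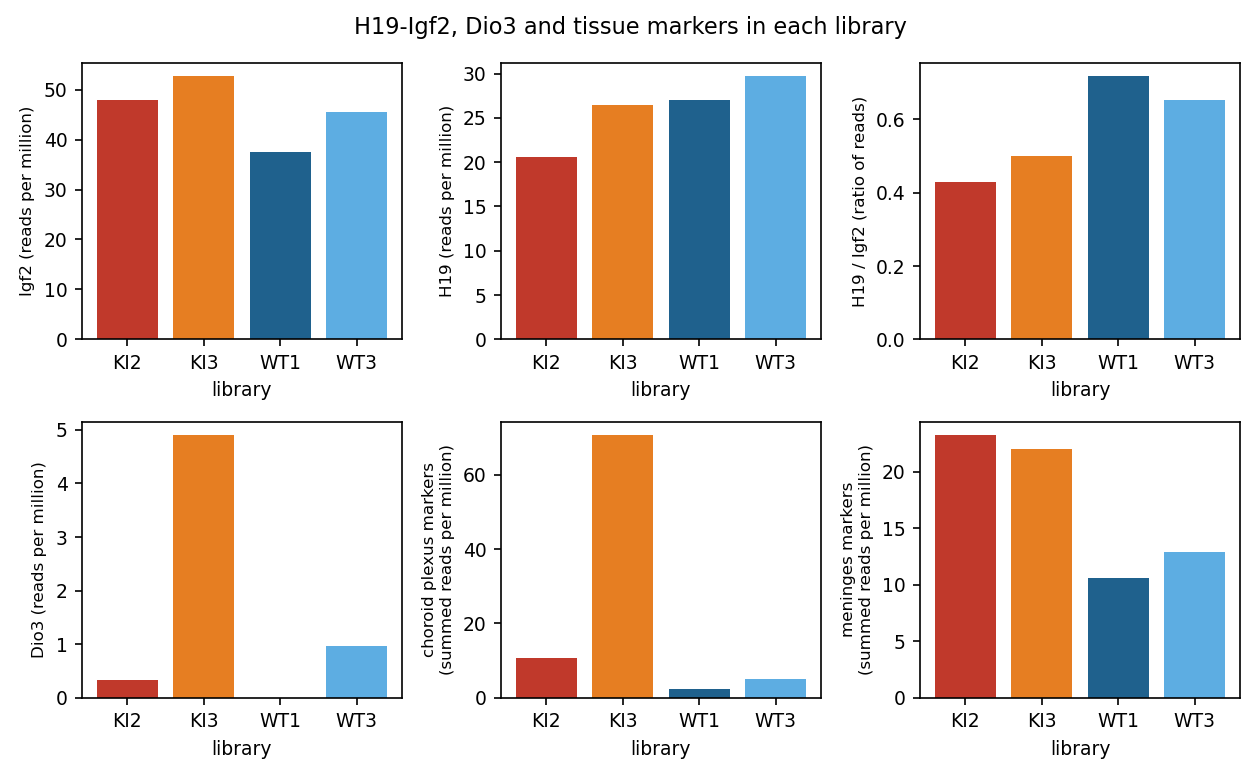
RPM of Igf2, H19 and Dio3, H19 reads per Igf2 read, and the summed RPM of choroid plexus and meninges markers (vertical axes from 0, 1 bar per library). The ratio is 0.430 and 0.501 in KI2 and KI3 against 0.718 and 0.652 in WT1 and WT3, and Dio3 and the choroid plexus markers are both highest in KI3.

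Among the other regulators of fetal growth, Plagl1 had the lowest p-value. Plagl1, on chromosome 10, codes for the zinc finger transcription factor Zac1, which is known to act on other imprinted genes, and had 2084 reads in KI2 and 1999 in KI3, against 2427 in WT1 and 2496 in WT3. Both cKI f/+ libraries were below both WT libraries, and the gap exceeded the spread within each group. Its log2 fold change of -0.30 with a standard error of 0.08 (unadjusted p = 0.0040, adjusted p = 0.744, edgeR) gave the lowest p-value of all members, yet it was not called. Igf2r, the receptor that clears IGF2 from the cell surface, had 1761 reads in KI2 and 1680 in KI3, against 1848 in WT1 and 1513 in WT3, and the WT libraries enclosed both cKI f/+ libraries. Its log2 fold change of 0.01 was -0.06 without KI2 and -0.12 without WT3. Airn, the noncoding RNA antisense to Igf2r, had 14 reads in KI2 and 10 in KI3, against 15 in WT1 and 24 in WT3, at a log2 fold change of -0.72 with a standard error of 0.45 (adjusted p = 0.969, edgeR). With counts this low the order of KI2 and WT1 rests on 1 read, and the log2 fold change of Airn was -0.34 without WT3 and -1.03 without WT1.

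At the Kcnq1 locus, Cdkn1c, the cell cycle inhibitor p57, had 755 reads in KI2 and 814 in KI3, against 724 in WT1 and 759 in WT3. Kcnq1ot1, the long noncoding RNA of the same control region, had 337 reads in KI2 and 279 in KI3, against 312 in WT1 and 275 in WT3. Neither gene separated the groups, with log2 fold changes of 0.05 and 0.04. Cdkn1c was at 0.01 without KI3 or WT1 and at 0.10 without WT3, and Kcnq1ot1 was -0.13 without KI2 and -0.03 without WT3. Grb10 had 4532 reads in KI2 and 5122 in KI3, against 4889 in WT1 and 4207 in WT3, where the highest and the second highest library came from different groups. Its log2 fold change of 0.06 was -0.02 without KI3 and -0.04 without WT3. Ddc, the decarboxylase next to Grb10 that makes dopamine and serotonin, had 10 reads in KI2 and 11 in KI3, against 4 in WT1 and 10 in WT3, among the lowest of all members.

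The Dlk1-Dio3 domain on chromosome 12 holds protein-coding genes of the paternal copy and a series of noncoding RNAs of the maternal copy. Meg3, the first of these noncoding RNAs, had 6129 reads in KI2 and 6108 in KI3, against 5349 in WT1 and 5638 in WT3. The cKI f/+ values were the higher ones, at a log2 fold change of 0.13 with a standard error of 0.08 (adjusted p = 0.969, edgeR), or 0.08 without WT1. Rian, a host of small nucleolar RNAs and microRNAs, had 2459 reads in KI2 and 2620 in KI3, against 2180 in WT1 and 2755 in WT3. Mirg, the microRNA host further along, had 143 reads in KI2 and 156 in KI3, against 110 in WT1 and 146 in WT3. WT1 was the lowest library for all of Meg3, Rian and Mirg, and the groups overlapped for Rian and Mirg. Their log2 fold changes of 0.01 and 0.19 became -0.15 and -0.0020 without WT1, and that of Rian was -0.02 without KI3.

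On the paternal side of this domain, Dlk1, a transmembrane protein related to notch ligands, had 118 reads in KI2 and 138 in KI3, against 91 in WT1 and 102 in WT3. Again KI2 and KI3 lay above WT1 and WT3, with a log2 fold change of 0.38 and a standard error of 0.19 (adjusted p = 0.969, edgeR), and Meg3 reads per Dlk1 read were 51.9 in KI2 and 44.3 in KI3, against 58.8 in WT1 and 55.3 in WT3. Rtl1, a gene derived from a retrotransposon, had 24 reads in KI2 and 21 in KI3, against 25 in WT1 and 22 in WT3, which is too few to show a small difference. The log2 fold change of Rtl1, -0.09, was 0.02 without KI3.

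Dio3, the deiodinase that inactivates thyroid hormone, varied more than any other member. It had 6 reads in KI2 and 89 in KI3, against 0 in WT1 and 17 in WT3. KI3 alone was high, and WT3 lay above KI2, so the groups overlapped. The log2 fold change was 2.42 with a standard error of 1.14 (adjusted p = 0.969, edgeR). It was 1.43 without WT1, -0.51 without KI3 and 3.31 without KI2, the latter being called (adjusted p = 0.0354, edgeR) and resting on the reads of KI3, and without WT3, where WT1 at 0 stands alone, the fitted value was 8.56. KI3 was also the library with the most choroid plexus RNA. For this tissue 7 of 7 markers had a row and 5 were tested, and their summed level was 10.8 RPM in KI2 and 70.8 in KI3, against 2.44 in WT1 and 5.11 in WT3. The most abundant was Ttr, the thyroid hormone carrier transthyretin, with 116 reads in KI2 and 956 in KI3, against 0 in WT1 and 4 in WT3, and Kl was at 0 in KI3 and WT1. All 5 tested markers had higher values in cKI f/+ mice, with 0 called and 3 at an unadjusted p under 0.05, Ttr, Clic6 and Aqp1, whose groups did not overlap. Dio3 and the marker sum were both highest in KI3 and lowest in WT1, while their order in KI2 and WT3 differed, and the part of this tissue in the Dio3 reads was not tested.

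The Snrpn-Ube3a domain on chromosome 7 is the region whose paternal loss in humans causes Prader-Willi syndrome and whose maternal loss causes Angelman syndrome. Ndn had 4744 reads in KI2 and 4768 in KI3, against 4491 in WT1 and 4435 in WT3, and was among the members with the smallest spread within a group. Magel2, a related MAGE family gene, had 280 reads in KI2 and 332 in KI3, against 333 in WT1 and 263 in WT3. Mkrn3, a makorin ring finger gene known for its role in the timing of puberty, had 260 reads in KI2 and 296 in KI3, against 262 in WT1 and 328 in WT3. For Magel2 and Mkrn3 the WT libraries spanned or nearly spanned the cKI f/+ libraries, and each library pair of a group differed by more than the group means. Snrpn, which codes for the spliceosomal protein SmN, had 629 reads in KI2 and 699 in KI3, against 630 in WT1 and 746 in WT3, with overlapping groups. The direction of these last 3 genes turned with a single library. Magel2 went from 0.01 to -0.10 without KI3 and -0.14 without WT3, Mkrn3 from -0.11 to 0.07 without WT3, and Snrpn from -0.08 to 0.06 without WT3, all as log2 fold changes.

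Ube3a, the ubiquitin ligase made from the maternal copy in neurons, had 908 reads in KI2 and 778 in KI3, against 909 in WT1 and 1010 in WT3. KI3 was low and WT3 high, while KI2 and WT1 were nearly the same. This gave a log2 fold change of -0.21 with a standard error of 0.11 (adjusted p = 0.969, edgeR), and Ube3a was at -0.36 without KI2, -0.09 without KI3 and -0.13 without WT3. Snrpn reads per Ube3a read were 0.693 in KI2 and 0.898 in KI3, against 0.693 in WT1 and 0.739 in WT3, so that KI3 stood apart and the groups overlapped.

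On chromosome 6, Sgce and Mest are expressed from the paternal copy. Sgce, the epsilon-sarcoglycan gene whose human loss causes myoclonus dystonia, had 318 reads in KI2 and 385 in KI3, against 443 in WT1 and 417 in WT3. Both cKI f/+ libraries were lower, at a log2 fold change of -0.32 with a standard error of 0.12 (unadjusted p = 0.0268, adjusted p = 0.969, edgeR). Peg10, its divergent neighbor, was likewise lowest in KI2, and Peg10 reads per Sgce read were 1.44 in KI2 and 1.70 in KI3, against 1.43 in WT1 and 1.70 in WT3. This gave 1.57 ± 0.185 for cKI f/+ mice and 1.56 ± 0.190 for WT mice (mean ± SD, n = 2 each), a difference well within the spread.

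Mest, a hydrolase-fold protein of mesoderm and brain, had 1294 reads in KI2 and 1462 in KI3, against 1433 in WT1 and 1515 in WT3. Copg2, a coat protein subunit whose end overlaps that of Mest on the other strand, had 1329 reads in KI2 and 1347 in KI3, against 1524 in WT1 and 1376 in WT3. Each was lower in both cKI f/+ libraries after scaling, at log2 fold changes of -0.13 and -0.14 with standard errors of 0.09 and 0.08. Mest was at 76.8 ± 5.47 RPM in cKI f/+ mice and 84.2 ± 3.96 in WT mice (mean ± SD). Copg2 was at 74.6 ± 0.417 RPM in cKI f/+ mice and 82.7 ± 5.33 in WT mice. Mest was at -0.07 without KI2, -0.20 without KI3 and -0.08 without WT3, and Copg2 at -0.08 without WT1. The counting is not stated to use strand, so reads from the shared ends, 23.1% of Mest and 17.8% of Copg2 exon bases, cannot be assigned. Airn exons share 0% of their bases with Igf2r exons but lie in part within its introns, where reads of unspliced RNA meet the same limit. Peg13, on chromosome 15, had 3809 reads in KI2 and 3875 in KI3, against 4217 in WT1 and 3718 in WT3, and its log2 fold change of -0.07 was 0.01 without WT1 and -0.15 without WT3. Reads of Peg13 per read of its host Trappc9 were 3.11 in KI2 and 2.92 in KI3, against 3.12 in WT1 and 2.85 in WT3. Peg13 and Trappc9 lie on the same strand, so reads of unspliced Trappc9 RNA cannot be told apart from those of Peg13.

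The other 10 members were Peg3, Usp29, Zim1, Peg10, Impact, Gnas, Zrsr1, Rasgrf1, Slc38a4 and Trappc9. They had between 9 and 1371 reads in a library, log2 fold changes between -0.50 for Slc38a4 and 0.10 for Gnas, and adjusted p-values from 0.969 to 0.997 (edgeR). Zrsr1 is a retrogene of the X-linked splicing gene Zrsr2 and can share reads with it. Peg3 and Usp29 start next to each other on opposite strands, and Usp29 reads per Peg3 read were 0.400 in KI2 and 0.460 in KI3, against 0.436 in WT1 and 0.500 in WT3, with overlapping groups.

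How much the genes differed between libraries of one group was set beside other genes of similar depth, as the absolute log2 difference after adding 0.5 reads. For the 12 members with a mean of 1000 or more reads, the median difference was 0.09 between the cKI f/+ libraries and 0.11 between the WT libraries, against 0.07 and 0.10 over 4506 tested genes. Above the 90th percentile of these genes lay Peg3 at 0.24 between the cKI f/+ libraries, and Rian at 0.35 and Igf2r at 0.27 between the WT libraries. The 17 members with 100 to 1000 reads had medians of 0.19 and 0.18, against 0.12 and 0.13 over 6605 genes. Among these members, 3 lay above the 90th percentile of 0.33 between the cKI f/+ libraries, namely H19 at 0.35, Peg10 at 0.49 and Rasgrf1 at 0.37, and 1 lay above that of 0.37 between the WT libraries, Mirg at 0.42. The largest differences of all were those of Dio3, at 3.75 between the cKI f/+ libraries and 5.15 between the WT libraries, followed by Ddc at 1.24 and Airn at 0.68 between the WT libraries. Each of these 3 genes had fewer than 100 reads on average, where the medians over 4675 tested genes were 0.34 between the cKI f/+ libraries and 0.35 between the WT libraries and the 90th percentiles 1.02 and 1.04. Dio3 lay above both percentiles and Ddc above that of the WT libraries, while Airn lay below it.

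Genes around the imprinted list gave a similar count. Of 50 other imprinted genes, 49 had a row and 34 were tested, and 0 were called, 20 being higher in cKI f/+ mice and 14 lower, with a median log2 fold change of 0.03 and 2, Peg12 and Cobl, higher at an unadjusted p under 0.05. Nap1l4, a histone chaperone gene at the end of the Kcnq1 domain, was the most abundant per length. Of 22 genes that keep or erase the imprint marks, 19 had a row, all 19 were tested and 0 were called, 9 being higher and 10 lower, at a median of -0.04. Trim28, the corepressor that zinc finger proteins bring to methylated control regions, was the most abundant, with 12099 reads in KI2 and 13873 in KI3, against 12008 in WT1 and 11707 in WT3. Of 16 genes of IGF signaling, 14 were tested and 0 were called, 6 being higher and 8 lower, at a median of -0.03. Igfbp2, a binding protein of IGF2, led this list with 3955 reads in KI2 and 4472 in KI3, against 3771 in WT1 and 3850 in WT3.

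Of the other tissues that such samples can hold, blood, microglia, diencephalon and ventral telencephalon each had 0 markers called. Blood markers, 9 of 9 with a row and led by Hbb-bs, summed to 506 RPM in KI2 and 385 in KI3, against 510 in WT1 and 539 in WT3, with 8 of 9 lower in cKI f/+ mice and 3 at an unadjusted p under 0.05, all lower (Hba-a2, Hbb-bt and Alas2). Microglia markers, 6 of 6 and led by C1qa, summed to 25.9 in KI2 and 29.0 in KI3, against 33.0 in WT1 and 31.6 in WT3, with 1 at an unadjusted p under 0.05, Cx3cr1, lower. Diencephalon markers, 5 of 6 with a row and led by Lhx9, summed to 38.4 in KI2 and 45.5 in KI3, against 36.5 in WT1 and 42.0 in WT3. Lhx9 alone was at 27.6 RPM in KI2 and 34.2 in KI3, against 22.7 in WT1 and 29.4 in WT3, so this sum mostly follows 1 gene. Gbx2 and Sim1 were at 0 in KI2, KI3 and WT3, and 0 of 3 tested markers had an unadjusted p under 0.05. Ventral telencephalon markers, 8 of 8 and led by Dlx1, summed to 238 in KI2 and 250 in KI3, against 246 in WT1 and 308 in WT3, with 2 at an unadjusted p under 0.05, Dlx2 lower and Nkx2-1 higher. Their part in the values of the imprinted genes was not tested.

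Promoters were described from their bases. RefSeq windows (build GRCm38.p6) of 300 bases, from 250 before to 50 after a start, were found for 27 of the 35 members with a row, 43 different windows in all. The median window of members held 11 CpG dinucleotides, against 7 over all 32817 different windows. The letters TGCCGC, the core that the imprint-keeping protein ZFP57 binds when methylated, were searched on both strands and occurred in 10 of the 43 windows, or 23.3%, from 9 genes, against 11.6% of all windows. Some windows of one gene overlap, among them both Mest windows with matches, so these are not independent, and a match is a description and not a site. Among members with a match before the start are Mest and Meg3, which are abundant here and of opposite parental class. Their bases before the start are shown with TGCCGC or its reverse complement in capitals, Mest at chr6:30737800-30738049 on the plus strand with 2 matches and Meg3 at chr12:109540746-109540995 on the plus strand with 1 match.
Mest: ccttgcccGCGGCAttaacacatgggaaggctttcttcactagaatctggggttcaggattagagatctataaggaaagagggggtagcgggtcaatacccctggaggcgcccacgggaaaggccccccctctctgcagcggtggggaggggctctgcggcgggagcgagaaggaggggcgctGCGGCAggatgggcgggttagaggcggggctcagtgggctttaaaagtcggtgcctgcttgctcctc
Meg3: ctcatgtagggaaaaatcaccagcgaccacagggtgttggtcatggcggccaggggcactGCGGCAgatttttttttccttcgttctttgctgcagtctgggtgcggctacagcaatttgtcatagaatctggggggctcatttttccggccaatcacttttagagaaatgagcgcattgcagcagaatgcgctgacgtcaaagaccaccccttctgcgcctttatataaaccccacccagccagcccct

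The short stretch between the starts of Peg3 and Usp29 is shown because both genes are paternally expressed and are read away from it on opposite strands. It spans 146 bases at chr7:6730432-6730577, written on the plus strand from Peg3 to Usp29. It holds 5 CpG dinucleotides, in capitals, and 0 matches of TGCCGC.
Peg3-Usp29: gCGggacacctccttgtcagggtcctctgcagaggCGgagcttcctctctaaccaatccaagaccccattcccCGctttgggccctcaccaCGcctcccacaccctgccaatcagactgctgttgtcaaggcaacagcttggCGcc

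Several members are also hosts of microRNAs. RefSeq places 56 mature microRNAs within 8 members, namely H19, Igf2, Meg3, Rian, Mirg, Rtl1, Usp29 and Mest, and Mirg holds the most with 26. Within Rtl1, 11 of 13 lie on the strand opposite to the gene, so they are fully complementary to its transcript. The reads counted here come from the host RNAs, and the mature microRNAs were not measured. Those of H19, Igf2 and Mest are shown because these hosts belong to the loci described above, with the seed (bases 2 to 8) in capitals. They are joined by miR-127-3p and miR-433-3p opposite Rtl1, and by miR-453 and miR-496a-5p of Mirg, the only pair among the 56 that shares a seed.
miR-675-5p (H19): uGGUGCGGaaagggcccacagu
miR-675-3p (H19): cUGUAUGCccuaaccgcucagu
miR-483-5p (Igf2): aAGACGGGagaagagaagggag
miR-483-3p (Igf2): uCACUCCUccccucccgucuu
miR-335-5p (Mest): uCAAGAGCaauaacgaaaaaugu
miR-335-3p (Mest): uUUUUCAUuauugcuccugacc
miR-127-3p (Rtl1, opposite strand): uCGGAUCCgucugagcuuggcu
miR-433-3p (Rtl1, opposite strand): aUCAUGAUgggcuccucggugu
miR-453 (Mirg): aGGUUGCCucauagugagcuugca
miR-496a-5p (Mirg): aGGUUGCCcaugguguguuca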

How the data were processed

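The deposited values of the 4 libraries are raw read counts of each gene, without normalization. The submitters' processing notes name Bowtie2 2.2.3, TopHat2 2.0.12, HTSeq 0.6.0 and mm9, while 24486 of 26378 genes matched by identifier have their GRCm38 position of GENCODE M21 in the table. Columns could be tied to a genotype and not to single labelled samples, and the labels describe sequencing in triplicate. The authors' own mean, fold change and p-value columns were not used. Libraries of a group were not copies, since the chi-square per degree of freedom of their counts, over all genes with reads, was 4.36 for KI2 with KI3 and 5.67 for WT1 with WT3. P-values set the difference between groups against the spread between these libraries, which the tests borrow in part from all genes.

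Counts were filtered by expression, normalized by TMM and tested with the quasi-likelihood test of edgeR 4.0.16 in R 4.3.3, with Benjamini-Hochberg adjustment over all 15786 genes. The standard error is the size of the log2 fold change divided by the root of F. Whether groups overlap was read from TMM-scaled counts, and RPM were scaled to total counts. Exon lengths came from GENCODE M21 and sequences from RefSeq (GRCm38.p6). Members and lists were chosen with earlier results of these data known.

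Values in every library were given for members with an unadjusted p under 0.05, the 12 with the highest level per length, those of 4 loci (H19-Igf2, Dlk1-Dio3, Kcnq1, Snrpn-Ube3a) and the 3 that differed most between libraries of one group. The results were also computed by DESeq2 1.42.0 and by the likelihood ratio test of edgeR, with 3 other size factors, with 2 other filters, after dropping genes on X and Y, and with any 1 library left out.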

Additional observations from a re-analysis of the deposited data

How the results depend on the processing

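The count of imprinted genes called at an adjusted p under 0.05 was 0 with edgeR's quasi-likelihood test, DESeq2, the likelihood ratio test, RLE, upper quartile or total-count scaling, both other filters, and without chromosomes X and Y. The filter at 10 counts in every library retained 32 members. The count was 3 at an unadjusted p under 0.05 and between 0 and 1 with each library left out. The count at an unadjusted p under 0.05 was 1 with DESeq2, 3 to 4 under the other settings, and between 3 and 6 with a library left out. The cause was not tested. In these last fits the lone library is assumed to vary like the other group.

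With a library left out, the median log2 fold change of maternally expressed genes lay between -0.0571 and -0.0013, against 0.0085 with all libraries, and that of paternally expressed genes between -0.0921 and -0.0024. Under the settings that kept all libraries, both medians kept their sign. Of 25 members named with values, 13 kept their direction in every setting run and 12 turned in at least 1 fit without a library. Their log2 fold changes there ranged from -0.1204 to 0.1503 for Igf2r, -0.1311 to 0.1880 for Kcnq1ot1, -0.1536 to 0.2020 for Rian, -0.0020 to 0.4239 for Mirg, -0.2191 to 0.0189 for Rtl1, -0.5066 to 8.5559 for Dio3, -0.1409 to 0.1815 for Magel2, -0.2750 to 0.0668 for Mkrn3, -0.2044 to 0.0573 for Snrpn, -0.0372 to 0.1616 for Grb10, -0.0079 to 0.1589 for Nnat and -0.1521 to 0.0117 for Peg13.

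Adding Snurf to Snrpn and Nesp to Gnas was not run, since Snurf and Nesp have no row. Libraries could not be paired, as the 2 groups have fewer than 2 replicate numbers in common. With few reads, as for Dio3, Airn, Ddc, Rtl1 and Slc38a4, small differences were not detectable at this depth.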
